A study of Mus musculus with 2 samples.

Results

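Nr2f2, Nr2f1 and Nr2f6 encode the COUP-TF family of nuclear receptors, also called COUP-TFII, COUP-TFI and EAR2. All 3 were found by symbol among the 27998 genes of the deposited matrix, and none of them was used to set the ranges of cells compared below. Only the later comparisons of cells with and without detected Nr2f2 group cells by one of these genes. COUP-TFs are orphan receptors that bind DNA as dimers at direct repeats of the nuclear receptor half-site, and they often repress transcription by recruiting corepressors or by competing with other receptors for sites or for the shared partner RXR. COUP-TFII is known for its roles in vein identity and mesenchymal development. In cultured fat cell precursors it has been described as acting downstream of Wnt signals to restrain Pparg, the receptor that drives fat cell formation.

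The cells were adipocyte precursors flow-sorted from subcutaneous adipose tissue of wild-type (WT) mouse pups, 12 days old, cross-fostered onto dams whose milk fat was labelled high or low in n-6/n-3 PUFA (polyunsaturated fatty acid) ratio. There was 1 sample for each of the 2 milk conditions, and the labels give neither the number of pups behind a sample nor their sex. RNA was counted as unique molecular identifiers (UMIs) in 10x Genomics 3′ version 2 libraries. The deposited matrix joined both libraries under barcode suffixes 1 and 2, and which suffix is which milk condition is not given by the labels. The suffixes are therefore called library 1 and library 2, no diet comparison was made, and no p-value was computed. Every interval is at 95% and covers counting error only, so that it says nothing of the spread between animals.

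After filtering, 6885 of 6905 barcodes were kept, 3307 in library 1 and 3578 in library 2, with medians of 12962 and 12112.5 UMIs per cell. Of these, 6693 were precursors, meaning cells with UMIs of fewer than 3 marker genes of every other cell type checked and fewer than 100 haemoglobin UMIs. Haemoglobin UMIs were spread over the precursors of library 1 at 862 CPM (UMIs of a gene per 1000000 UMIs of the summed cells), beside 20.2 CPM in library 2, so that library 1 stood apart in free erythroid RNA. A total of 17 barcode sequences occurred in both libraries. Pdgfra, the surface receptor that marks these precursors, was found at 97.6 to 166 CPM in the ranges of cells described next.

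Cells were placed by UMIs of 8 markers per list after each cell had been thinned to 7470 UMIs, which left 6044 precursors. The F3 range holds the 264 cells with the highest summed score of F3, Clec11a, Fmo2, Gdf10, Mgp, Vit, Vtn and C2. The other cells, apart from 192 cycling ones with at least 2 UMIs of Mki67 or Top2a, were divided into 3 equal parts along an axis. At its one end lies the Dpp4 pole (1877 cells), high in markers of interstitial progenitors such as Dpp4 and Pi16, and at its other end the committed pole (1879 cells), high in Lpl, Fabp4, Pparg and basement membrane collagens. The middle part is called midway (1832 cells). These are ranges along scores, not cell types. At the cut of the F3 score, 71 cells lay just inside and 125 just outside.

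The 3 genes are close paralogs, so stretches of shared sequence bear on whether reads could be split between them. The longest identical run in annotated transcripts of Nr2f2 and Nr2f1 (GENCODE annotation, build GRCm38/mm10) was 59 bases and coding. It lay at chr7:70360052-70360110 in Nr2f2 and at chr13:78198284-78198342 in Nr2f1, on the minus strand in both. Capitals mark the 23 bases that Nr2f6 shares with both of them, at chr8:71381081-71381103 on the minus strand.
Nr2f2 and Nr2f1: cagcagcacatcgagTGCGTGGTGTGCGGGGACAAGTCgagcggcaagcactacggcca
Nr2f6: TGCGTGGTGTGCGGGGACAAGTC
The run ended 3680 bases before the 3′ end of the Nr2f2 transcript and 1733 before that of Nr2f1, while the library chemistry reads 3′ ends. Within the last 500 bases of any annotated coding transcript, the longest runs shared by Nr2f2 and Nr2f1, by Nr2f2 and Nr2f6 and by Nr2f1 and Nr2f6 were 26, 16 and 18 bases.

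Each gene also overlaps a gene on the opposite strand. Nr2f2 (chr7:70351944-70366735, minus strand, protein coding) overlaps B130024G19Rik over 1826 bases that start 12966 bases from its 3′ end. Nr2f1 (chr13:78188973-78199757, minus strand, protein coding) overlaps the antisense gene A830082K12Rik over 1741 bases that start 9044 bases from its 3′ end. Nr2f6 (chr8:71374123-71381960, minus strand, protein coding) overlaps the protein-coding gene Ocel1 over 5239 bases that include its own 3′ end. The sources used here do not state whether strand was used in counting, so Nr2f6 counts could include reads of Ocel1 and are uncertain to that extent.

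Nr2f2 was a low-level gene in most precursors and stood far higher in the F3 range. Its level in the Dpp4 pole was 9.12 CPM in library 1 and 6.82 CPM in library 2. Midway cells held 9.10 and 7.87 CPM, and the committed pole 15.9 and 11.7 CPM. The F3 range held 63.9 CPM in library 1 and 49.5 CPM in library 2. The F3 range was the highest of these ranges in each library, the committed pole came next, and the Dpp4 pole and midway cells could not be separated.

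Summed over both libraries, Nr2f2 in the F3 range was 7.13-fold its level in the Dpp4 pole, a log2 ratio of 2.83 (2.53 to 3.13), with 2.81 in library 1 and 2.86 in library 2. Of 4883 genes with at least 20 CPM in either range, 8.29% were called higher in the F3 range and 6.92% lower, meaning 1.5-fold or more apart in the same direction in each library. Nr2f2 was among the higher ones, but it reached 20 CPM through the F3 range alone and had to differ to be tested, so its call adds nothing to the ratio. Nr2f2 exceeded the committed pole there by a log2 ratio of 2.03 (1.75 to 2.30). The committed pole exceeded the Dpp4 pole by 0.81 (0.55 to 1.07), and midway cells differed from the Dpp4 pole by 0.11 (-0.18 to 0.39).

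**Figure D1:**
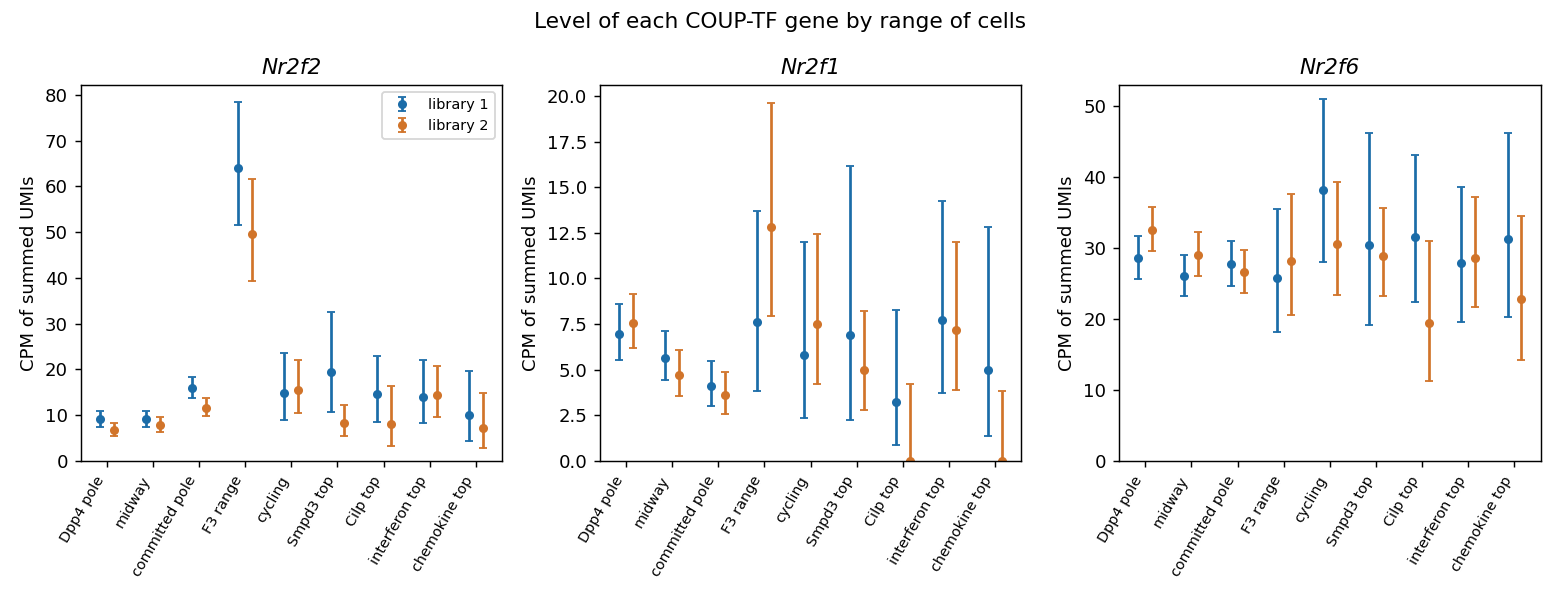
CPM of summed UMIs of Nr2f2, Nr2f1 and Nr2f6 in 9 ranges of cells (horizontal axis), library 1 in blue and library 2 in orange, with exact 95% Poisson intervals for counting error. Nr2f2 stands at 63.9 and 49.5 CPM in the F3 range against 9.12 and 6.82 CPM in the Dpp4 pole, while Nr2f6 lies between 19.4 and 38.2 CPM in every range.

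Along the F3 score, Nr2f2 was highest at the upper end. Cells with a score of 0 had 7.94 CPM of Nr2f2, and scores of 1, 2 and 3 gave 9.99, 12.0 and 8.96 CPM. At scores of 4 and 5, still outside the F3 range, the level was 15.6 and 21.8 CPM. It was 36.1 CPM at scores of 6 to 8 and 88.3 CPM at 9 or more, where library 1 reached 104 CPM and library 2 74.9 CPM. The cut of the F3 range therefore did not fall on a step in Nr2f2: the level was already above that of cells with a score of 0 in cells just outside it.

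Detection followed the level. In thinned cells, Nr2f2 had at least 1 UMI in 5.01% of the Dpp4 pole, 6.33% of midway cells, 9.85% of the committed pole and 32.6% (27.0% to 38.6%) of the F3 range. The share in the F3 range was 35.9% in library 1 and 29.9% in library 2. Before thinning, 40.9% of F3-range cells and 9.91% of Dpp4-pole cells held a UMI, at median depths of 11389.5 and 13683 UMIs. Of all precursors with Nr2f2, 14.1% had 2 or more UMIs of it, and in the F3 range 37.0% did, with 7 as the most in 1 cell.

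The F3 range was 4.37% of the thinned precursors and held 3.87% of the UMIs of those cells. It held 18.2% of their Nr2f2 UMIs, 7.0% of their Nr2f1 UMIs and 3.65% of their Nr2f6 UMIs. Most Nr2f2 UMIs thus lay outside the F3 range, spread thinly over far more numerous cells.

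Markers of other cell types were compared between the F3 range and the Dpp4 pole, because COUP-TFII is well known in endothelial cells. Cells with UMIs of 3 or more markers of such a type had been left out before. Low sums are thus partly set by that rule and cannot show that such cells are absent. The 8 endothelial markers summed to 35.1 CPM in the F3 range, with 1 of the 8 at 0, and to 30.9 CPM in the Dpp4 pole. The 6 mural markers, genes of the cells that wrap small vessels, summed to 60.2 CPM in the F3 range against 18.9 CPM in the Dpp4 pole and 39.8 CPM in the committed pole. None of the 6 was at 0 in these ranges. The mural markers thus moved in the same direction as Nr2f2, and their part in the result was not tested. The 5 adipocyte markers summed to 0.976 CPM in the F3 range, with 3 of the 5 at 0.

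Cycling cells held Nr2f2 at 14.9 and 15.6 CPM in libraries 1 and 2, a log2 ratio of 0.96 (0.48 to 1.41) over the Dpp4 pole. Cells in the top 5% for interferon-response genes held 13.9 and 14.3 CPM, a log2 ratio of 0.84 (0.35 to 1.31). Of these 258 cells, 125 belonged to the committed pole and 9 to the F3 range. The top 5% for the matrix genes of the Cilp list held 14.5 and 7.98 CPM, and 14 of its 152 cells lay in the F3 range. The top for the Smpd3 list held 19.4 CPM in library 1 and 8.31 CPM in library 2, with log2 ratios over the Dpp4 pole of 1.09 (0.17 to 1.90) and 0.28 (-0.41 to 0.93). The top for chemokine genes held 8.50 CPM over both libraries. Summed over both libraries, the intervals of these last 3 tops against the Dpp4 pole included no difference.

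Nr2f1 ran the other way along the axis from the Dpp4 pole to the committed pole. Its level in the Dpp4 pole was 6.94 CPM in library 1 and 7.54 CPM in library 2. Midway cells held 5.65 and 4.69 CPM, and the committed pole 4.09 and 3.60 CPM. The committed pole was lower than the Dpp4 pole by a log2 ratio of -0.92 (-1.30 to -0.54), with -0.76 and -1.07 in the libraries. The order from the Dpp4 pole through midway to the committed pole was the same in each library. The poles stood the other way round for Nr2f2, whose midway cells and Dpp4 pole could not be separated.

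In the F3 range Nr2f1 was at 7.64 CPM in library 1 and 12.8 CPM in library 2, from 11 and 21 UMIs. Its log2 ratio over the Dpp4 pole was 0.52 (-0.07 to 1.06), with 0.14 and 0.77 in the libraries. That difference could not be separated from counting error, whereas the ratio over the committed pole was 1.44 (0.80 to 2.04). By library the latter was 0.90 (-0.20 to 1.87) in library 1, which includes no difference, and 1.83 (1.0 to 2.63) in library 2. At scores of 4 and 5, just outside the F3 range, Nr2f1 was at 3.19 and 3.84 CPM, so that it did not climb towards the cut as Nr2f2 did.

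Nr2f1 was the least detected of the 3 genes. At equal depth it had a UMI in 5.11% of the Dpp4 pole, 3.55% of midway cells, 2.82% of the committed pole and 7.58% of the F3 range. Among 38 leukocyte-marked cells, which are no clean negative, the share was 10.5% (2.94% to 24.8%). No range was thus shown to be above background in its share of cells with Nr2f1. No Nr2f1 UMI was found in library 2 among 68 cells of the Cilp top, where 3 counts, the limit used for a 0, would be 4.41% of cells with a UMI, or among 81 cells of the chemokine top, where they would be 3.70%. In library 1 those tops held 3.23 and 5.01 CPM, from 4 UMIs each. The antisense gene A830082K12Rik was at 2.82 CPM in the Dpp4 pole, 1.99 CPM midway, 1.72 CPM in the committed pole and 4.55 CPM in the F3 range. It had the same order as Nr2f1, and without strand in the counting the reads of both cannot be told apart where they overlap.

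Nr2f6 had the most UMIs of the family and was nearly level across the ranges. It stood at 28.5 CPM in library 1 and 32.5 CPM in library 2 in the Dpp4 pole, and at 26.0 and 29.0 CPM in midway cells. The committed pole held 27.7 and 26.6 CPM, and the F3 range 25.7 and 28.1 CPM. At equal depth 18.8% of the Dpp4 pole, 18.4% of midway cells, 17.9% of the committed pole and 18.2% of the F3 range had a UMI. All 4 shares lay within the interval of the 38 leukocyte-marked cells, 26.3% (13.4% to 43.1%), and are not shown to be above background. Leukocyte-marked cells held Nr2f6 at 33.2 CPM, beside 28.6 CPM in precursors. They are no clean negative for this gene, so the comparison cannot show whether the 4 shares are background. Its log2 ratio of the F3 range over the Dpp4 pole was -0.19 (-0.53 to 0.14), and that of the committed over the Dpp4 pole -0.18 (-0.33 to -0.02), with -0.04 and -0.29 in the libraries. The latter was -0.10 with TMM scaling. In these comparisons the interval ends of Nr2f6 were smaller in size than the lower ends for Nr2f2. That did not hold for midway cells over the Dpp4 pole. There Nr2f6 had -0.16 (-0.31 to -0.01) and Nr2f2 0.11 (-0.18 to 0.39). Reads of Ocel1 may be among these Nr2f6 counts.

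Of the 3 genes, Nr2f2 and Nr2f6 reached 20 CPM in the comparison of the F3 range with the Dpp4 pole, and 1 of them, Nr2f2, was called. Between the committed and the Dpp4 pole, where 7.72% of 4780 genes were called higher and 7.89% lower (15.6% in either direction), Nr2f6 alone reached the minimum and it was not called. For Nr2f2 and Nr2f1 in that comparison, only the levels and counting intervals above stand.

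**Figure D2:**
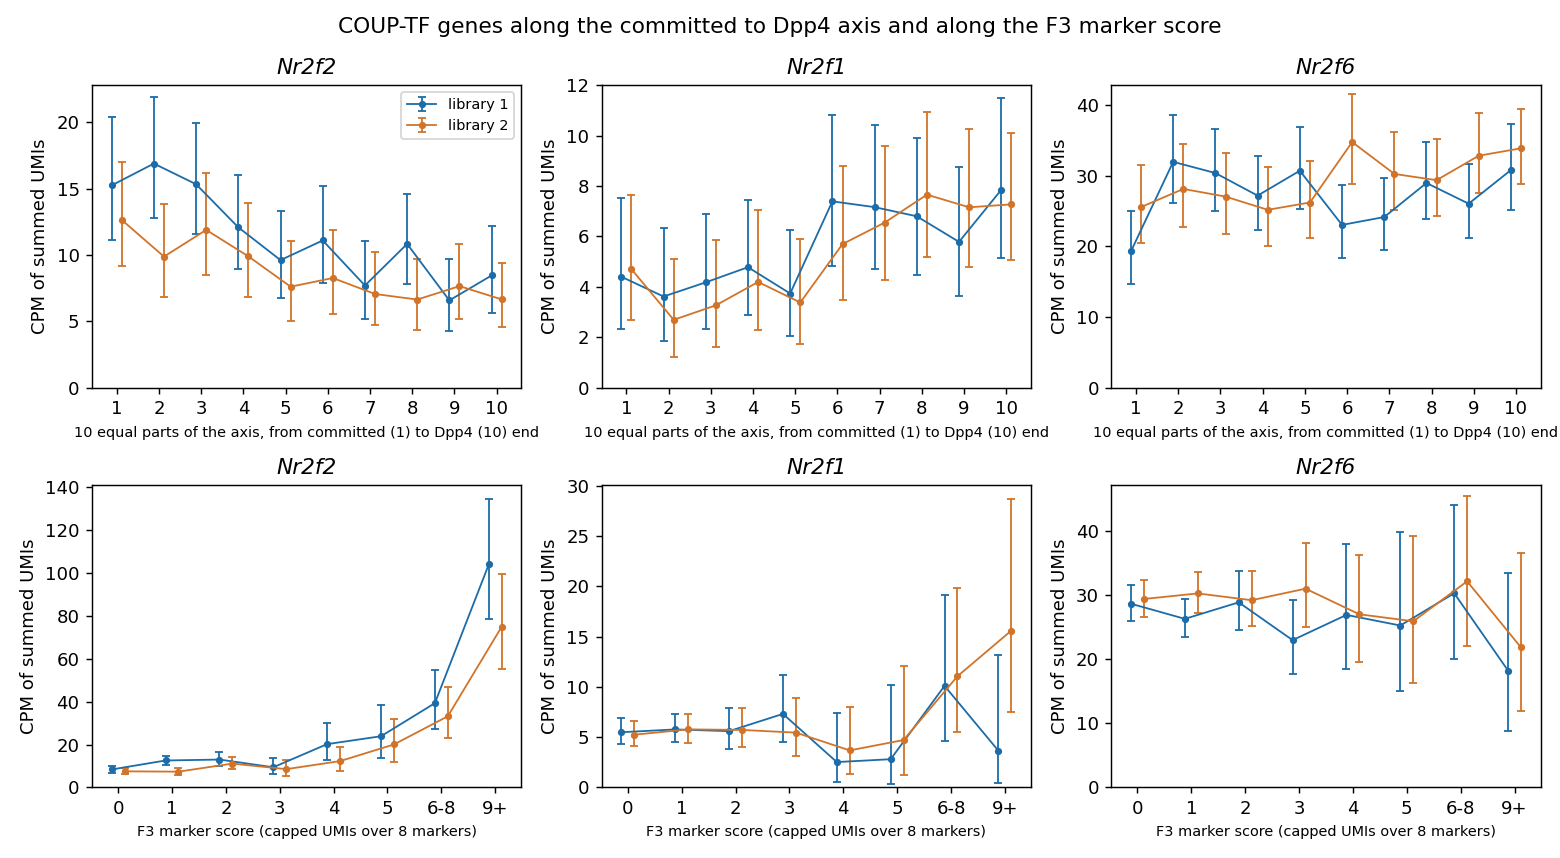
CPM of summed UMIs of the 3 genes in 10 equal parts of the axis from the committed end (1) to the Dpp4 end (10) in the upper row and by F3 score in the lower row, with exact 95% Poisson intervals, library 1 in blue and library 2 in orange. Nr2f2 runs from 13.8 CPM at the committed end to 7.39 CPM at the Dpp4 end over both libraries, Nr2f1 from 4.56 to 7.51 CPM, and Nr2f2 alone climbs to 104 and 74.9 CPM at F3 scores of 9 or more.

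With the axis cut into 10 equal parts, the first 3 parts from the committed end held Nr2f2 at 13.8, 13.4 and 13.7 CPM, and the fourth at 11.1 CPM. The remaining parts lay between 7.13 and 9.68 CPM. Nr2f1 lay between 3.15 and 4.56 CPM in the first 5 parts and between 6.49 and 7.51 CPM in the last 5. At the committed end Nr2f2 was the more abundant of the pair, and at the Dpp4 end, with 7.39 and 7.51 CPM, their counts were alike within counting error. UMI counts from a 3′ assay do not depend on transcript length, but capture can differ between genes, so this sets counts side by side and not molecules per cell.
Over both libraries Nr2f6 was lowest in the part at the committed end, at 22.7 CPM (19.1 to 26.7), and highest at the Dpp4 end, at 32.6 CPM (28.8 to 36.8). In between it showed no steady order. Library 1 was highest in the second part, at 32.0 CPM, and library 2 was lowest in the fourth, at 25.2 CPM, and highest in the sixth, at 34.8 CPM.

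Detection of more than 1 family gene in the same cell was rare. Of the 6044 cells at equal depth, 72.1% had a UMI of none of the 3, 25.1% of 1, 2.70% of a pair and 0.0993%, or 6 cells, of all 3. Nr2f2 and Nr2f1 were found together in 24 cells, against 20.1 from the product of their shares, a ratio of 1.19 (0.77 to 1.77). Nr2f2 and Nr2f6 were found together in 105 cells against 92.2, a ratio of 1.14 (0.93 to 1.38). Nr2f1 and Nr2f6 gave 52 against 45.2, a ratio of 1.15 (0.86 to 1.51). All 3 intervals included 1, and neither joint nor exclusive detection was shown at this depth. The intervals take the product of the shares as fixed, so they do not test whether detection of the genes is independent.

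Within the F3 range, 24 cells held both Nr2f2 and Nr2f6 against 15.6 from the shares, a ratio of 1.53 (0.998 to 2.23), with 1.39 in library 1 and 1.67 in library 2. Whether these genes are detected independently there was not tested. Nr2f2 and Nr2f1 shared 5 cells there against 6.52. In the poles and midway cells the Nr2f2 and Nr2f1 pair rested on 5 to 7 cells each. Across precursor cells within a library, Pearson's r between any pair of the 3 genes was between -0.00 and 0.03, over 3189 and 3504 cells that share a library and its depth.

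**Figure D3:**
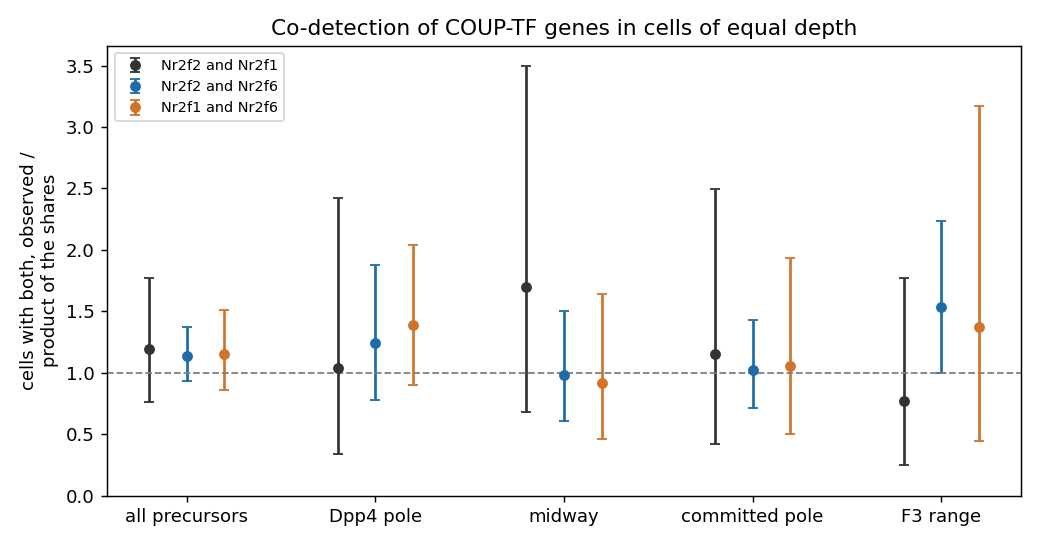
Cells with UMIs of both genes of a pair, divided by the number expected from the product of the 2 shares, in cells thinned to equal depth (both libraries). Bars are 95% Clopper-Pearson intervals of the share with both, divided by the same product. The dashed line marks a ratio of 1. The ratio over all precursors is 1.19, 1.14 and 1.15 for the 3 pairs. The pair of Nr2f2 and Nr2f6 has its highest ratio in the F3 range, at 1.53 (0.998 to 2.23). The intervals take the product as fixed and do not test independence.

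Among 4284 genes with at least 20 CPM, the 10 with the most similar pattern to Nr2f2 over precursor cells were ranked by the lower of their r in the libraries. Mgp, a matrix protein that inhibits calcification, led with r of 0.20 in library 1 and 0.18 in library 2. It was followed by Igfbp4, C2, Tspan11, Clec11a, Nrp1, Igfbp7, Bgn, Ltbp4 and Serping1, the last at 0.12 and 0.10. Mgp, C2 and Clec11a are among the markers that set the F3 range. Every correlation was weak, and cells of 1 library share its depth and free RNA.

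The other genes of that list also stood higher in the F3 range than in the Dpp4 pole. Igfbp4, which binds insulin-like growth factors, was at 2113 CPM in the F3 range, 713 CPM in the committed pole and 247 CPM in the Dpp4 pole. Tspan11, a tetraspanin, was at 118, 33.9 and 8.70 CPM in the same order. Nrp1, a receptor for semaphorins and VEGF, was at 264, 156 and 49.5 CPM. Serping1, the C1 inhibitor of complement, was at 1827, 998 and 766 CPM. All 4 had the order of Nr2f2, with the F3 range highest and the Dpp4 pole lowest. They were picked for their likeness to Nr2f2 over these same cells, so the shared order adds nothing to the correlations.

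For Nr2f1 the 5 most similar genes were Col1a2, Pi16, Cthrc1, Ssbp3 and Col1a1, none above r of 0.07 in either library. Pi16, a marker of the Dpp4 pole, was at 2468 CPM there and at 618 CPM in the committed pole, and Cthrc1 was at 809 and 149 CPM. For Nr2f6 they were Arpc2, Abhd8, Coro1b, Mustn1 and Set, also at or below 0.07. Correlations this weak in sparse counts single out no gene.

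Genes of pathways tied to COUP-TFs were counted in 7 lists, first between the ranges in which Nr2f2 differed. Among 12 other nuclear receptors that reached 20 CPM, 3 were called higher in the F3 range than in the Dpp4 pole (Rara, Nr4a1 and Nr4a2) and 3 lower, Rorb and Esr1 among them, beside 8.29% and 6.92% of all genes. The list's median log2 ratio was 0.10, beside -0.06 over all genes tested. Nr4a2, an orphan receptor of the immediate early kind, was at 43.1 and 48.3 CPM in the F3 range and at 12.1 and 11.6 CPM in the Dpp4 pole. Rorb, a retinoid-related orphan receptor, was at 1.39 and 5.50 CPM in the F3 range against 38.3 and 32.4 CPM. Rorb was also called lower in the committed pole, as was Nr4a1, which was higher in the F3 range. The retinoic acid receptor Rara was at 28.5 and 22.0 CPM in the F3 range against 12.8 and 12.1 CPM.

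None of the corepressors and coactivators that nuclear receptors recruit was called. This held for 13 genes in the F3 range, where 15.2% of all genes were called in either direction. It also held for 12 in the committed pole, where 15.6% were called. Nrip1, a corepressor of nuclear receptors in fat cells, had log2 ratios of 0.38 (0.07 to 0.66) for the F3 range and 0.64 (0.50 to 0.78) for the committed pole over the Dpp4 pole. The latter was 0.45 in library 1, under 1.5-fold, and 0.82 in library 2. Ncoa1, a coactivator, had 0.45 (0.30 to 0.60) in the committed pole.

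Of 15 genes of Wnt and beta-catenin signalling, 3 were called higher in the F3 range (Fzd4, Sfrp1 and Sfrp4) and 2 lower (Sfrp2 and Rspo3), beside 8.29% and 6.92% of all genes. Rspo3, a secreted enhancer of Wnt signals, was at 8.34 and 2.45 CPM in the F3 range against 34.5 and 36.2 CPM in the Dpp4 pole. Fzd4, a Wnt receptor, was at 54.2 and 43.4 CPM against 16.6 and 16.5 CPM. Sfrp4, a secreted Wnt antagonist, was at 953 and 1009 CPM against 341 and 234 CPM. In the committed pole Fzd4 was also called higher and Rspo3 lower, with log2 ratios of 1.52 and -2.82. The secreted antagonists thus did not move one way, since Sfrp1 and Sfrp4 were higher and Sfrp2 lower in the F3 range.

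Hedgehog genes were counted because COUP-TFII has been described as a hedgehog target. Of 5 that reached 20 CPM, 3 were called higher in the F3 range and none lower, beside 8.29% and 6.92% of all genes, with a list median of 1.28. Among them Gas1, a hedgehog coreceptor, was at 161 and 149 CPM in the F3 range against 50.9 and 42.5 CPM in the Dpp4 pole, and Boc, another coreceptor, at 35.4 and 24.5 CPM against 13 and 11.6 CPM. In the committed pole 1 of 3 was called higher, Gas1, with a log2 ratio of 1.68, beside 7.72% of all genes.

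Regulators and markers of fat cell formation went in both directions. In the F3 range 5 of 18 were called higher (Cebpb, Klf5, Dlk1, Id2 and Cd36) and 2 lower (Ebf3 and Cd24a), beside 8.29% and 6.92% of all genes. Klf5, a factor of early adipogenesis, was at 29.9 and 38.5 CPM in the F3 range, at 4.6 and 4.89 CPM in the Dpp4 pole and at 5.69 and 5.97 CPM in the committed pole. Cd36, a fatty acid transporter, was at 43.8 and 49.5 CPM in the F3 range, 22.6 and 16.9 CPM in the Dpp4 pole and 148 and 130 CPM in the committed pole. Pparg, which served as a marker of the committed pole, was at 4.88 CPM in the F3 range, where Nr2f2 was highest, and at 20.1 CPM in the committed pole and 3.21 CPM in the Dpp4 pole. Nr2f2 and Pparg therefore did not share an order across the ranges: both were higher in the committed than in the Dpp4 pole, and in the F3 range only Nr2f2 was high.

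Fatty acid oxidation, the process named in the study's title, had few calls. Of 17 genes, none was called higher in the F3 range and 1, Etfa, lower, beside 15.2% of all genes in either direction, with a median of -0.16. Etfa, which carries electrons from acyl-CoA dehydrogenases, was at 69.5 and 75.2 CPM against 132 and 126 CPM. Cpt1a, the gate of fatty acids into mitochondria, was at 23.6 and 16.5 CPM in the F3 range and at 25.8 and 24.1 CPM in the Dpp4 pole. None of 18 was called in the committed pole, beside 15.6% of all genes. Several were lower there by less than 1.5-fold, with log2 ratios over the Dpp4 pole of -0.53 (-0.61 to -0.45) for Etfa, -0.42 (-0.60 to -0.24) for Cpt1a and -0.31 (-0.40 to -0.22) for Acaa2, a mitochondrial thiolase.

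Vascular and guidance genes, among which COUP-TFII targets are known in endothelium, split as well. Of 9 in the F3 range, 3 were called higher (Nrp1, Vegfc and Cxcl12) and 3 lower (Notch2, Sema3b and Sema3d), beside 8.29% and 6.92% of all genes. Nrp1 was at 285 and 246 CPM in the F3 range against 49.1 and 49.9 CPM in the Dpp4 pole. Vegfc, a growth factor of lymphatic vessels, was at 21.5 and 19.0 CPM against 5.27 and 5.53 CPM, and Cxcl12, a chemokine of stromal cells, at 681 and 718 CPM against 201 and 216 CPM. Sema3d, a secreted semaphorin, was at 22.9 and 22.6 CPM against 68.2 and 66.0 CPM.

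Cells with an Nr2f2 UMI were then set against cells with none, at equal depth within each library. Over all precursors this compared 262 cells with 2578 in library 1 and 236 with 2968 in library 2. Of 4692 genes, 0.682% were called higher (32 genes) and 0.0853% lower (4 genes). Those with the highest ratios were Mgp, at 162 CPM with and 35.2 CPM without Nr2f2, and Vit and Vtn, all of them markers of the F3 range. Ifitm1, which is no marker of the range, was at 51.6 and 14.9 CPM, and Meox2, a homeobox gene, at 31.2 and 11.1 CPM. The lower genes were Tctn1, Tnfrsf11b, Crispld1 and Edn1, of which Edn1, the vasoconstrictor endothelin 1, was at 12.4 CPM with and 22.1 CPM without. These 4 reached 20 CPM only in cells without Nr2f2, and Vit, Vtn, Ifitm1 and Meox2 only in cells with it. Such calls add nothing to the ratios.

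Of the 83 pathway genes tested in that split, 2 were called, Nr4a2 and Nrp1, both higher, beside 0.767% of all genes in either direction. Nr4a2 was at 24.0 and 24.4 CPM in cells with Nr2f2 and at 14.0 and 12.7 CPM in cells without, a log2 ratio of 0.87 (0.53 to 1.19). It reached 20 CPM only in the cells with Nr2f2, so its call adds nothing to that ratio. Nrp1 was at 172 and 158 CPM against 97.2 and 91.7 CPM, a log2 ratio of 0.81 (0.68 to 0.93). None of 18 fatty acid oxidation genes and none of 17 fat cell formation genes was called, beside the same 0.767% of all genes. At that share most lists this short would hold no call, so these counts say little of the lists. The median of the oxidation list was 0.03, beside 0.02 over all genes.

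Outside the F3 range the split shrank to 5 genes called higher of 4701 (0.106%) and none lower (0.0%). The 5 were Pias4, Sult5a1, Borcs6, Marf1 and Per1, and no pathway gene was among them. All but Sult5a1 reached 20 CPM only in the cells with Nr2f2, so their calls add nothing to their ratios. Nrp1 still stood at 151 and 128 CPM with Nr2f2 and at 90.7 and 86.1 CPM without, with log2 ratios of 0.74 and 0.57, the second just under 1.5-fold. Fzd4 had a log2 ratio of 0.54 (0.26 to 0.80), Cd36 of 0.46 (0.28 to 0.64) and Gas1 of 0.43 (0.27 to 0.59). Each of these 4 genes was also higher in the committed than in the Dpp4 pole, where Nr2f2 was higher too. Pparg, under the minimum of 20 CPM, was at 15.2 and 12.6 CPM with Nr2f2 and at 11.1 and 8.74 CPM without. Its log2 ratio was 0.52 (0.02 to 0.96) outside the F3 range. It was 0.33 (-0.16 to 0.76) over all precursors and -0.72 (-4.22 to 1.37) within the F3 range, intervals that included no difference. Pparg was also higher in the committed pole, and the part of that in these ratios was not tested.

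Within the committed pole alone, 103 and 82 cells with Nr2f2 were set against 791 and 903 without, and of 4706 genes 0.807% were called higher and 0.319% lower (1.13% in either direction), no pathway gene among them. Pparg was at 24.7 and 18.0 CPM in cells with Nr2f2 and at 21.3 and 17.5 CPM in cells without, a log2 ratio of 0.19 (-0.43 to 0.72). Cells with a detected Nr2f2 UMI therefore did not hold measurably less Pparg there, and the interval leaves room for a change of either sign. Pparg was also among the markers that select the cells of this pole, so its level there is conditioned by that choice. Dlk1, which restrains fat cell formation, was at 979 and 1063 CPM with and at 1357 and 1186 CPM without, a log2 ratio of -0.32 (-0.40 to -0.24), short of the fold used for a call. Nrp1 was at 248 and 198 CPM against 151 and 156 CPM.

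Within the F3 range, 42 and 44 cells with Nr2f2 were set against 75 and 103 without, and of 4961 genes 4.11% were called higher and 1.65% lower (5.76% in either direction). Called higher were 2 of 11 nuclear receptors (Rarg and Nr4a2), 1 of 19 oxidation genes (Echs1) and 1 of 10 vascular and guidance genes (Angpt2). The log2 ratio was 0.67 (0.02 to 1.29) for Echs1 and 0.83 (-0.17 to 1.81) for Angpt2, which could not be separated from counting error. Nr4a2 was at 73.3 and 85.2 CPM with Nr2f2 and at 26.8 and 40.3 CPM without. Rarg, a retinoic acid receptor, was at 63.7 and 70.0 CPM against 37.5 and 26.0 CPM. Nr2f6 was at 35.1 and 48.7 CPM with and at 26.8 and 20.8 CPM without, a log2 ratio of 0.85 (0.05 to 1.64), short of a call because library 1 gave 0.41. Across these splits a cell without an Nr2f2 UMI is not shown to lack Nr2f2.

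**Figure D4:**
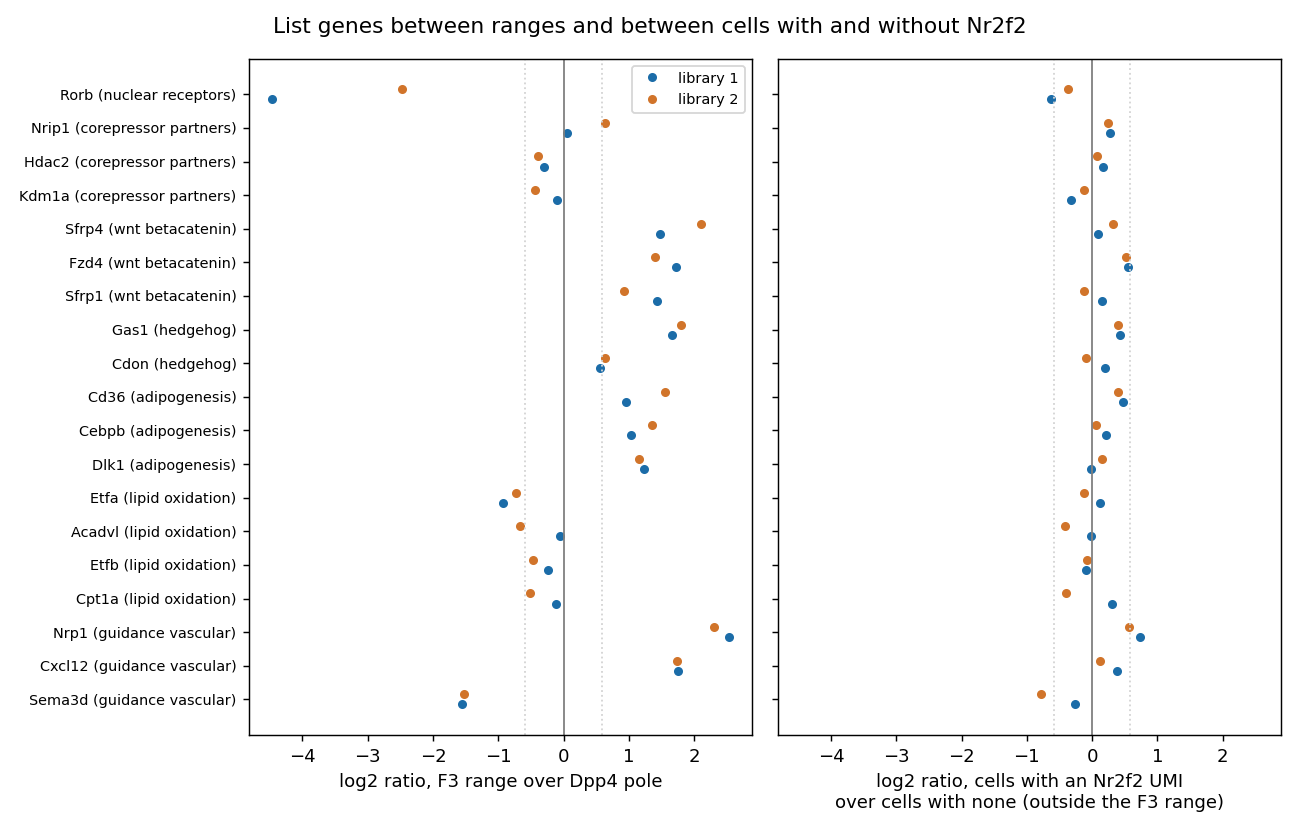
Log2 ratios of 19 pathway genes in library 1 (blue) and library 2 (orange), on the left for the F3 range over the Dpp4 pole and on the right for cells with an Nr2f2 UMI over cells with none outside the F3 range. Dotted lines mark 1.5-fold in either direction. On the left Nrp1 reaches 2.42 over both libraries and Rorb -3.23, while on the right no gene passes a dotted line in both libraries.

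Between the libraries, which carry no diet label here, Nr2f2 over all precursors was at 13.5 CPM in library 1 and 10.8 CPM in library 2. The log2 ratio of library 2 over library 1 was -0.33 (-0.51 to -0.15). By range the ratio was -0.42 (-0.83 to -0.01) in the Dpp4 pole and -0.45 (-0.78 to -0.12) in the committed pole. It was -0.21 (-0.62 to 0.20) midway and -0.37 (-0.82 to 0.08) in the F3 range, intervals that included no difference. Nr2f2 was not lower in library 2 in cycling cells or in the interferon top, given above. The F3 range made up 4.12% (3.42% to 4.92%) of thinned precursors in library 1 and 4.59% (3.89% to 5.37%) in library 2, which overlap. Nr2f1 was at 5.75 and 5.87 CPM, a log2 ratio of 0.03 (-0.24 to 0.29), and Nr2f6 at 27.5 and 29.7 CPM, a log2 ratio of 0.11 (-0.00 to 0.23).

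Of 4627 genes that reached 20 CPM, 0.281% were 1.5-fold or more higher in library 2 and 0.216% lower (0.497% in either direction), and the 5th and 95th percentiles of their log2 ratios were -0.16 and 0.18. Of the 3 family genes Nr2f6 alone was in that set and was not called. Nr2f2, under the minimum, lay below these percentiles, but a gene of its level has a wider counting error than most genes tested. With 1 library of each kind, the difference has no replicate check. The 862 and 20.2 CPM of haemoglobin moved with the libraries too, and their part in the Nr2f2 difference was not tested.

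Free RNA limits what a single UMI shows. No cell group in these libraries was a clean negative: cells set aside as leukocytes held the fibroblast collagen Col1a1 at 13954 CPM, beside 19902 CPM in precursors. Nr2f2 had 0.341 UMIs per 1000 Col1a1 UMIs in the Dpp4 pole, 0.880 in the committed pole and 2.60 in the F3 range. The same ratio was 0.973 in leukocyte-marked and 2.81 in endothelial-marked cells. At equal depth 7.89% of 38 leukocyte cells (1.66% to 21.4%) had an Nr2f2 UMI, at a median of 11546 UMIs, and the shares of the Dpp4 pole, midway cells and the committed pole all lay within that interval, so that they are not shown to be above background. The 32.6% of the F3 range lay above the upper end of that interval.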

How the data were processed

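The deposited matrix held whole-number UMI counts per gene and barcode, which the authors had not normalized, judged from the values, and the deposited gene and barcode tables held no other measurement. The submitters' processing notes name build mm10, Seurat 3.0.1 and Cell Ranger, the last with no version, and state no roles. The labels' protocols call the cells fresh and also cryopreserved and thawed, and state 3000 sorted cells per condition, beside 3321 and 3584 barcodes. The libraries held 42092816 and 43491307 UMIs.

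Cells were kept with at least 500 genes and at most 10% mitochondrial UMIs. Cells with UMIs of 3 or more markers of another type were left out. The planned rule removed 2630 cells of library 1 as erythroid, so at least 100 haemoglobin UMIs were required instead, a change made after seeing the data. No doublet caller was run. Cells under 7470 UMIs (375 and 314 of the kept cells) entered no range. Markers were capped at 3 UMIs each in scores. The F3 range was the top 5%, and a score of at least 6. Poles were the outer 2 of 3 equal parts of the percentile of the Dpp4 score less that of the committed score, and the other tops were the top 5% of their lists and overlap the ranges.

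Summed counts were scaled to CPM. Intervals were exact Poisson for sums, conditional exact for ratios and Clopper-Pearson for shares. Genes needed 20 CPM in one of the sums compared, and gene-wide ratios used a prior of 0.5 counts. A gene that reached it in a single sum had to differ to be tested, so its call is no support beyond its ratio. Counts of calls include such genes. A zero limit used 3 counts or cells. Scaling alternatives came from edgeR 4.0.16 and DESeq2 1.42.0, used for factors only; numpy 2.4.6 and scipy 1.17.1 did the rest, and the gene-wide step was tested on simulated data. Pearson's r used the log of 1 plus counts per 10000.

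The genes, markers and lists were chosen with earlier results of these data known, among them the height of Nr2f2 in F3-type cells, which is no independent support. Named genes were up to 4 per list and comparison with the largest ratios in 1 direction in both libraries, and the most correlated genes. Further genes (those called in lists, the genes called in the splits, Klf5, Cpt1a and Pparg, and Nr2f6 in the F3 split) were named after their values were seen. Cebpd and Vegfd, 2 listed genes, were not found by symbol and not used here. Values of some listed genes are left out of the text and figures.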

Additional observations from a re-analysis of the deposited data

Results flagged for a closer look

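The 3 genes also had UMIs in cells that the report's comparisons leave out. In 85 cells set aside by endothelial markers, Nr2f2 was at 28.3 CPM (20.02 to 38.8), with 29.6 CPM in library 1 and 26.8 CPM in library 2, beside 12.1 CPM in precursors. Nr2f1 was at 6.70 CPM and Nr2f6 at 43.2 CPM (32.8 to 55.8) in these endothelial-marked cells, beside 5.81 and 28.6 CPM in precursors. In 59 cells set aside by leukocyte markers, Nr2f2 was at 13.6 CPM (6.21 to 25.8), all of it from 9 UMIs of library 1. Nr2f1 was at 7.54 CPM and Nr2f6 at 33.2 CPM (20.8 to 50.2) in the leukocyte-marked cells. Col1a1, a fibroblast collagen, was at 10062 CPM in the endothelial-marked and 13954 CPM in the leukocyte-marked cells, and the part of free RNA or doublets in these values was not tested.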

How the results depend on the processing

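No paired analysis was possible because there was 1 sample for each condition and no label ties a library to a condition. No value changed sign under any alternative run. With the F3 range as the top 10%, the Nr2f2 log2 ratio over the Dpp4 pole was 2.49, and with the erythroid rule of 3 markers the Nr2f2 ratio of library 2 over library 1 was -0.53, with 588 precursors of library 1 left. In cells with an Nr2f2 UMI, 2 of 83 pathway genes were called, beside 36 of all 4692 genes. At 50 CPM they became 1 of 41, beside 16 of 2317. With library 1 alone they were 7 of 86, beside 122 of 4791, and with library 2 alone 4 of 79, beside 104 of 4726. With at least 2 Nr2f2 UMIs they were 16 of 92, where 612 of 5130 genes were called. Leaving out each library gave 2.81 to 2.86 for Nr2f2 and 0.14 to 0.77 for Nr2f1 in the F3 range over the Dpp4 pole. For the committed over the Dpp4 pole it gave 0.77 to 0.80 for Nr2f2, -1.07 to -0.76 for Nr2f1 and -0.29 to -0.04 for Nr2f6, and for the co-detection of Nr2f1 and Nr2f2 1.05 to 1.35. With the poles limited to cells of an F3 score of at most 1, chosen after seeing the data, Nr2f2 in the committed over the Dpp4 pole was 0.59. Each other alternative for these results stayed within the counting interval of the value reported. Depth limits Nr2f1 most, with 481 UMIs over all precursors.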
